A study of Homo sapiens with 7 samples.

Results

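The retinoblastoma protein Rb, profiled by CUT&RUN in ZR-75-1 cells, was found with palbociclib but not with DMSO at 241 regions that lay at promoters of non-coding genes and at no promoter of a protein-coding gene. ZR-75-1 is a breast cancer line that expresses the oestrogen receptor, palbociclib inhibits the kinases CDK4 and CDK6, and in CUT&RUN an antibody brings a nuclease to a protein on chromatin so that nearby DNA is cut free and sequenced. The 241 regions were 4.37% (95% interval 3.84 to 4.94%) of the 5520 regions gained with palbociclib on chromosomes 1 to 22 and X. The number depended on the definition: it was 468 (8.48%) when 1 TSS stood for each gene, 364 when palbociclib replicate 2 was left out, and 2 when the parental lists were cut to equal length. They were chosen by the measured peak calls: overlapping peaks of both palbociclib replicates were joined, regions that met a peak of either DMSO replicate were removed, and those that touched the window from 2000 bp upstream to 500 bp downstream of any transcript start site (TSS) of a protein-coding gene were set aside. The remaining regions that met the same window of any other annotated gene were kept. Their gain, their number and their fold enrichment are therefore a description of how they were selected, and no test was applied to them. Intervals beside percentages are exact 95% binomial (Clopper-Pearson) limits for counting error alone, and regions are not replicates.

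Parental ZR-75-1 cells, with RB1 intact, received DMSO or 500 nM palbociclib for 4 days, with 2 libraries of separate cultures for each treatment and an antibody to Rb. RB1 knockout (RB1 KO) ZR-75-1 cells, made by CRISPR–Cas9 editing followed by single-cell sorting and expansion of clones, gave 1 Rb library with DMSO and 1 with palbociclib at the same dose and time. Parental cells with palbociclib gave 1 library with mouse IgG2a in place of the Rb antibody. The deposited peak lists hold no read totals, so the depth of the libraries is not known. MACS2 fold enrichment and p-value together give the number of fragments stacked at a summit. Its median over the 241 regions was 16 in both palbociclib replicates, with 6 as the lowest value in each. Over all peaks of a library it was 13 in both DMSO replicates, and 16 and 17 in palbociclib replicates 1 and 2. Such values reflect binding and the calling cutoff as well as depth, so they do not measure depth.

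Rb restrains cell cycle genes by binding E2F transcription factors at their promoters, and CDK4 and CDK6 weaken this by phosphorylating Rb. Human promoters do not belong to protein-coding genes alone. Long non-coding RNA (lncRNA) genes are transcribed by RNA polymerase II like coding genes, and some of them are the precursors from which microRNAs (miRNAs) or small nucleolar RNAs are cut. Pseudogenes are copies of coding genes that no longer encode a functional protein, and a copied promoter can come with them. Genes of 5S ribosomal RNA, Y RNA and some other small RNAs are transcribed by RNA polymerase III, a polymerase that Rb is known to restrain.

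The DNA under the summits is shown for 5 of the regions, the 3 with the best mean within-list rank by −log10 q and 2 at well-known host genes. Each sequence is the hg38 reference within 100 bp of the summit, written on the strand of the non-coding gene, with SP/KLF words (GGGCGG on either strand) in capitals.
SMG1P2, chr16:29595217-29595417, minus strand: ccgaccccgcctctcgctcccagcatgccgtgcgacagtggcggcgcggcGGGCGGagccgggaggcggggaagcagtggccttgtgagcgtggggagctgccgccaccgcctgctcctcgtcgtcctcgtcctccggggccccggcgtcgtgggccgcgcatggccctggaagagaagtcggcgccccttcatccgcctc
FAM86KP, chr4:9152891-9153091, plus strand: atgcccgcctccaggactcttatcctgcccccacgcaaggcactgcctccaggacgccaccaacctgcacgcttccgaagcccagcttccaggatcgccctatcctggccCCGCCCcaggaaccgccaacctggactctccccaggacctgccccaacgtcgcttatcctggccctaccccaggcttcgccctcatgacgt
LINC01063, chr3:196632516-196632716, minus strand: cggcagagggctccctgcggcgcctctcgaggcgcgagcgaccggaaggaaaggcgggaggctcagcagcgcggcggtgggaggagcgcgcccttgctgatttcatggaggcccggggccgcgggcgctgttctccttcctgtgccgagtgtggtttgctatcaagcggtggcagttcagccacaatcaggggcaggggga
MIR17HG, chr13:91347618-91347818, plus strand: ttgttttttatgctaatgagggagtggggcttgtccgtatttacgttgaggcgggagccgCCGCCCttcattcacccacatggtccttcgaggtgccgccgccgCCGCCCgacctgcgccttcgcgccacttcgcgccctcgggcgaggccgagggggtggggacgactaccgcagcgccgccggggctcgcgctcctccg
DANCR, chr4:52712227-52712427, plus strand: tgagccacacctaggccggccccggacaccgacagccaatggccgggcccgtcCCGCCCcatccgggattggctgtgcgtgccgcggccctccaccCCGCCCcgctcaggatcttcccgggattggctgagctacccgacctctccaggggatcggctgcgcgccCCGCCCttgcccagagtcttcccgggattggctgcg
All 5 windows were rich in G and C, at 75.6% for SMG1P2, 66.2% for FAM86KP, 69.2% for LINC01063, 68.7% for MIR17HG and 72.6% for DANCR. The SP/KLF word occurred 3 times at DANCR, 2 times at MIR17HG, once each at SMG1P2 and FAM86KP, and not at LINC01063.

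Most of the 241 regions belonged to lncRNA genes. The TSS nearest to the summit was that of an lncRNA at 192 regions (79.7%, 74 to 84.6%), of a pseudogene at 33 (13.7%, 9.62 to 18.7%), of a small RNA gene at 10 (4.15%, 2.01 to 7.5%) and of a gene still awaiting experimental evidence in the annotation at 6. Counting every gene whose window a region met, 207 (85.9%, 80.8 to 90%) met an lncRNA window and 64 (26.6%, 21.1 to 32.6%) a pseudogene window. The 241 regions met promoter windows of 374 of the 42092 non-coding genes, or 0.889%. By class, 265 of 18756 lncRNA genes (1.41%), 67 of 14835 pseudogenes (0.452%) and 34 of 7015 small RNA genes (0.485%) had such a region. Many of these genes are known by identifier only: 114 regions (47.3%) were nearest to a gene with no symbol, 28 to a LINC gene, 22 to a gene named as antisense to another gene and 12 to a host gene.

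The number of regions followed that of palbociclib peaks as a whole. Of 290 consensus regions at non-coding promoters alone, 241 (83.1%) met no DMSO peak, and over all 6644 consensus regions the gained share was also 83.1%. Peaks at non-coding promoters alone made up 4.88% and 4.38% of the 2 DMSO lists and 4.97% and 4.82% of the 2 palbociclib lists, with overlapping intervals. In number, they were 45 and 33 with DMSO and 413 and 394 with palbociclib. A region without a DMSO peak may still hold signal below the calling cutoff: the lowest −log10 p in the DMSO lists was 5.23 and 5.33, against 4.15 in both palbociclib lists, and 220 of the 241 regions (91.3%, 87 to 94.5%) were at or above 5.33 in both replicates. When each parental list was cut to the 816 best peaks of the shortest list, 2 of the regions were left, SMG1P2 and FAM86KP.

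Summits lay close to the annotated start of the non-coding gene, within limits that the selection itself set. A region had to meet the window from 2000 bp upstream to 500 bp downstream of a non-coding TSS, and no coding window. That window also reaches further upstream than downstream. The median distance from summit to nearest non-coding TSS was 131 bp, with 95 summits (39.4%, 33.2 to 45.9%) within 100 bp and 206 (85.5%, 80.4 to 89.7%) within 500 bp. For the 5004 gained regions at coding promoters the median distance to the nearest coding TSS was 81 bp. Upstream positions made up 56.4% (49.9 to 62.8%) of the 241 summits. The closest coding TSS to any of them was 645 bp away and the median was 22315 bp, with 138 of the 241 summits at least 10000 bp but under 10 times that far from a coding TSS, and 33 further away.

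**Figure D1:**
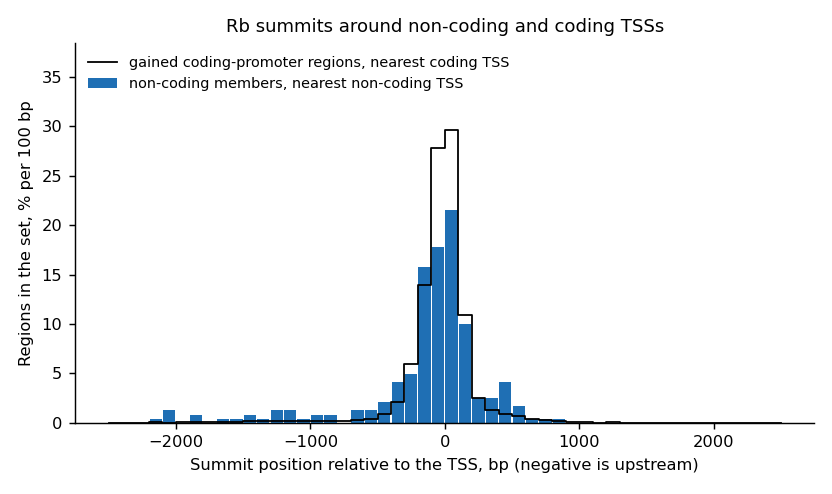
Position of Rb summits relative to the nearest TSS in bp (x axis, negative is upstream, bins of 100 bp) as a percentage of each set (y axis). Bars show the 241 non-coding regions and the line the 5004 gained coding-promoter regions. Both peak at the TSS, with medians of absolute distance of 131 and 81 bp, and the bars extend further upstream.

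The regions were mostly intergenic with respect to coding genes. The summit lay outside every coding gene at 197 regions (81.7%, 76.3 to 86.4%), in an intron at 31 and in an exon at 13. Of the 44 inside a coding gene, 35 (79.5%, 64.7 to 90.2%) belonged to a non-coding gene on the opposite strand. Examples are HM13-AS1, within HM13, which encodes a signal peptide peptidase, and ABCA15P, within CRYM. Chromosome 7 held 26 of the 241 regions (10.8%) and 5.04% of all gained regions, chromosome 17 held 24 (9.96% against 6.09%) and chromosome 16 held 19 (7.88% against 5.11%), while chromosome 19 held 11 (4.56% against 8.15%).

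Fold enrichment, as deposited, was slightly lower than at coding promoters in both replicates. It is the ratio of fragments at the summit to the local background with 1 added to each, and so lies below the plain ratio. Its median over the 241 regions was 6.56 in replicate 1 and 6.69 in replicate 2, with a lowest value of 2.39 and 2.67 and a highest of 19.9 and 18.6. Gained coding-promoter regions had medians of 7.33 and 7.27, and the 275 gained regions outside all annotated promoters had 6.16 and 6.19. The ratio to coding promoters was 0.894 and 0.921 (0.907 ± 0.0185, SD, n = 2) and that to regions outside promoters was 1.06 and 1.08 (1.07 ± 0.0119, SD, n = 2). The ratio to coding promoters was 0.972 when only peaks with −log10 q of at least 5 were used. The 49 non-coding regions that already met a DMSO peak were stronger, with medians of 17.1 and 17.8, and did not enter the 241. Fold enrichment did not order the classes of non-coding gene in the same way in both replicates: lncRNA regions had medians of 6.61 and 6.74, pseudogene regions 6.29 and 6.83, and the 10 small RNA regions 6.10 and 5.8.

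**Figure D2:**
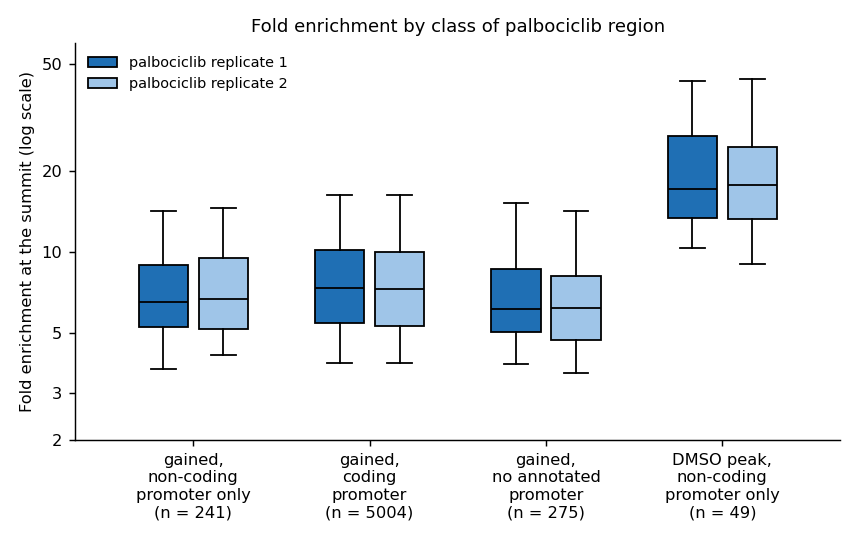
Fold enrichment at the summit (y axis, log scale) in palbociclib replicates 1 and 2 for 4 classes of palbociclib region (x axis). Boxes show the quartiles and median, and whiskers the 5th to 95th percentiles. Non-coding gained regions have medians of 6.56 and 6.69, below the 7.33 and 7.27 of gained coding-promoter regions and well below the 17.1 and 17.8 of non-coding regions with a DMSO peak.

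The replicates gave similar values for the same region, within a selection that kept only regions with a peak in both. Likeness between replicates was thus partly set by the selection. Across the 241 regions, which share their libraries, the Spearman correlation of fold enrichment was 0.639. It was 0.742 over gained coding-promoter regions and 0.679 over gained regions outside promoters. The median absolute difference between replicates was 0.31 on the log2 scale. It exceeded 1 at 7 regions, 2 higher in replicate 1 and 5 higher in replicate 2. A further 118 peaks in replicate 1 and 97 in replicate 2 lay at non-coding promoters with no DMSO peak and no partner in the other replicate, with median fold enrichments of 4.62 and 4.68.

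**Figure D3:**
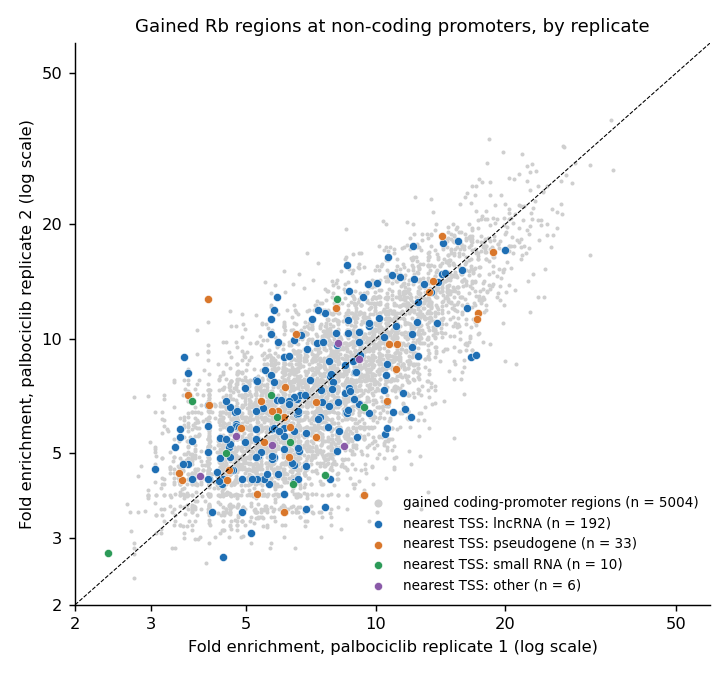
Fold enrichment in palbociclib replicate 1 (x axis) against replicate 2 (y axis), both on log scales. Coloured points are the 241 non-coding regions by the class of the nearest gene, grey points are gained coding-promoter regions, and the dashed line marks equal values. The coloured points spread along the line among the grey ones, with 7 differing by more than 1 on the log2 scale.

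The strongest regions were a mixture of pseudogenes and lncRNA genes. The top rank was held by SMG1P2, a pseudogene of SMG1, the kinase of nonsense-mediated RNA decay, with a fold enrichment of 13.6 and 14.2 at chr16:29594631-29595660. It was followed by FAM86KP, a pseudogene of the FAM86 methyltransferase family, at 18.7 and 16.9. The lncRNA gene LINC01063 had 19.9 and 17.1. These 3 regions held 72 and 65, 54 and 51, and 44 and 39 fragments at the summit in replicates 1 and 2. HM13-AS1 had 14.3 and 17.9, and TEDC2-AS1 had 10.1 and 14.0. C1orf220 was the most uneven of the 12 best-ranked regions, at 16.6 and 8.96. The other 6 were ENSG00000291077, at 15.5 and 18.1; AMZ2P1, at 12.6 and 12.5; ENSG00000290920, a second annotation entry of the pseudogene ZDHHC8BP, at 13.9 and 14.1; ENSG00000263011, at 14.3 and 14.8; LINC03006, at 14.2 and 18.6; and ABCA15P, at 17.3 and 11.7. Even the best-ranked of the 241 stood at place 516 of the whole list in replicate 1 and at 599.5 in replicate 2, so stronger peaks lay elsewhere. Of small RNA genes, the best-ranked was MIR935 (8.13 and 12.7), followed by RNVU1-22 (9.38 and 6.63), a variant U1 small nuclear RNA gene, MIR378A (5.71 and 7.13), MIR4683 (5.88 and 6.22) and RNA5S12 (7.62 and 4.40).

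**Figure D4:**
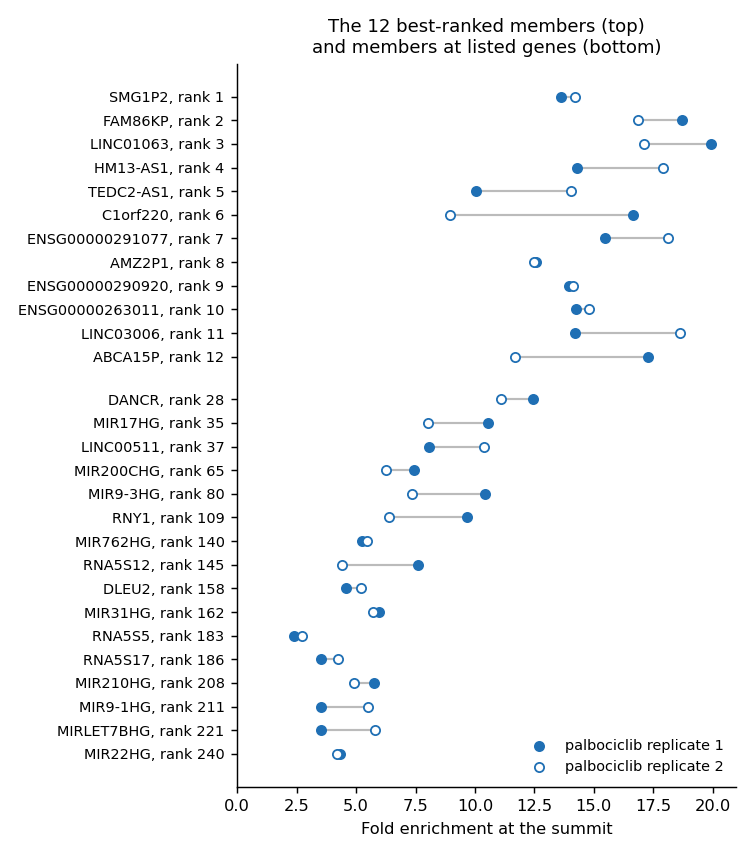
Fold enrichment at the summit (x axis) in palbociclib replicate 1 (filled) and replicate 2 (open) for the 12 best-ranked regions (top) and for the regions at genes of the listed groups (bottom). Lines join the 2 replicates of a region and ranks are among the 241. The top regions lie between 8.96 and 19.9, and DANCR leads the listed genes at 12.4 and 11.1.

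Host genes of miRNAs were the listed group with the most regions. Of 37 annotated genes in this list, 10 were met by a gained region at no coding promoter, 4 by a peak in 1 palbociclib replicate alone and 23 by no palbociclib peak in both. Over all lncRNA genes the share met was 1.41%. This list and those below were chosen with earlier results of these data known, so no excess is read from such shares. MIR17HG, the host of the miR-17-92 cluster, which is known as an oncogenic miRNA cluster and as a target of E2F and MYC, had 2 of the 241 regions, 297 bp apart. The region at its start, chr13:91347321-91348168, had a fold enrichment of 10.6 and 8.04, and the second, chr13:91348466-91349341, had 6.6 and 6.37. The summit of the first was 21 bp from the nearest annotated TSS and 2900 bp upstream of miR-17-5p. MIR9-3HG followed at 10.4 and 7.35, MIR200CHG, host of the epithelial miRNAs miR-200c and miR-141, at 7.42 and 6.24, and MIR31HG at 5.96 and 5.72. MIR210HG, host of the hypoxia-responsive miR-210, had 5.75 and 4.91, MIR762HG 5.26 and 5.45, and DLEU2, host of miR-15a and miR-16-1 and often deleted in chronic lymphocytic leukaemia, 4.56 and 5.19. The DLEU2 region was nearest to another lncRNA gene, ENSG00000274270, with its summit 61 bp from that TSS and 76689 bp from miR-15a-5p. MIR9-1HG (3.51 and 5.51), MIRLET7BHG (3.51 and 5.8) and MIR22HG (4.32 and 4.22) were among the weakest of the 241 regions.

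The mature miRNAs of these hosts are printed because the seed, bases 2 to 8 and here in capitals, largely sets which messenger RNAs a miRNA recognises. They are RefSeq sequences on GRCh38.p14, matched by position and strand to the hosts. 1 arm is shown for each of their 21 hairpins except MIR762, MIR3613, MIR3619 and MIR4763.
hsa-miR-17-5p, MIR17HG: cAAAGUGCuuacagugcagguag
hsa-miR-20a-5p, MIR17HG: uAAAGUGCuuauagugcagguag
hsa-miR-18a-5p, MIR17HG: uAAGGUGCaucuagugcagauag
hsa-miR-19a-3p, MIR17HG: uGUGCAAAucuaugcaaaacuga
hsa-miR-19b-3p, MIR17HG: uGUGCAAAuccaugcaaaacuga
hsa-miR-92a-3p, MIR17HG: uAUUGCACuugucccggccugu
hsa-miR-15a-5p, DLEU2: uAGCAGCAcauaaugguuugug
hsa-miR-16-5p, DLEU2: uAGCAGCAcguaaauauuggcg
hsa-let-7a-5p, MIRLET7BHG: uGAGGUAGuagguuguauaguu
hsa-let-7b-5p, MIRLET7BHG: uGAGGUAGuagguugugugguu
hsa-miR-9-5p, MIR9-1HG, MIR9-3HG and LINC00461: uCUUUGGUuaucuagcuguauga
hsa-miR-200c-3p, MIR200CHG: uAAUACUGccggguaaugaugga
hsa-miR-141-3p, MIR200CHG: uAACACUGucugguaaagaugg
hsa-miR-22-3p, MIR22HG: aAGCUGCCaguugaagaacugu
hsa-miR-31-5p, MIR31HG: aGGCAAGAugcuggcauagcu
hsa-miR-210-3p, MIR210HG: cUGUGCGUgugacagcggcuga
Among the 31 seeds of these 10 hosts, 8 were shared by a pair of hairpins, among them the seeds of miR-17-5p and miR-20a-5p, miR-19a-3p and miR-19b-3p, miR-15a-5p and miR-16-5p, and let-7a-5p and let-7b-5p. The same mature miR-9-5p is made from 3 loci, and each of the 3 lay in a gene met by one of the 241 regions. The third host, LINC00461, which holds MIR9-2 and was not on the list, was picked out after its values were seen, at 12.1 and 10.3. The distance from summit to miR-9-5p was 36498 bp at MIR9-1HG, 5870 bp at LINC00461 and 10456 bp at MIR9-3HG, and at LINC00461 and MIR9-3HG the miRNA lay upstream of the summit. In all, 31 of the 241 regions met the promoter window of a gene that holds or is an annotated miRNA, with 42 miRNA genes between them. At 16 of the 31 the window was that of a miRNA gene itself, whose annotated start is the hairpin's and not the transcript's. The share over all genes of this kind was not counted, so 31 cannot be read as high or low.

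Of 32 annotated host genes of small nucleolar RNAs, 1 was met by one of the 241 regions, where the share over all lncRNA genes was 1.41%. It was DANCR, at 12.4 and 11.1, with a summit 2 bp from its TSS. The other gained regions in this list, at 6 genes, also touched a coding promoter window and so were not counted among the 241: SNHG10 had a fold enrichment of 14.3 and 18.6, SNHG19 13.4 and 15.2, GAS5 14.3 and 9.29, ZFAS1 12.5 and 12, SNHG5 11.9 and 10.3, and SNHG22 4.79 and 3.39. SNHG6 and SNHG31 met a DMSO peak, and 4 genes of the list had a peak in 1 palbociclib replicate alone. Among widely studied lncRNA genes, 1 of 26 was met, LINC00511, at 8.08 and 10.4, while CRNDE, OIP5-AS1 and CDKN2B-AS1 had gained regions shared with a coding promoter. Another 6 genes of this list had a peak in 1 palbociclib replicate alone, and DLEU1 and TP53TG1 met a DMSO peak. None of 11 luminal or oestrogen-linked lncRNA genes was met, a list too short to set 0 apart from 1.41%. A peak in 1 palbociclib replicate alone was found at 3 of them, and TFAP2A-AS2 had a gained region shared with a coding promoter, at 10.2 and 15.2. None of 17 spliceosomal or histone U small nuclear RNA genes of the list was met, likewise too few to set 0 apart from the 0.485% over all small RNA genes. Of these, RNU1-2 and RNU4ATAC had a peak in 1 palbociclib replicate alone and RNU7-1 met a DMSO peak. RNU12 had a gained region shared with a coding promoter, at 6.52 and 5.24. Sharing of this kind was common: 1399 of the 5004 gained coding-promoter regions (28%) also met a non-coding promoter window.

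Of 37 annotated genes transcribed by RNA polymerase III, 5 were met, by 4 regions, and over all small RNA genes the share met was 0.485%. RNY1, a Y RNA gene, was met by the region nearest to the lncRNA gene GHET1, at 9.65 and 6.37. The other 4 genes were 5S ribosomal RNA genes of the array on chromosome 1. Genes there stand so close together that their promoter windows cover most of the array, so a region almost anywhere in it meets one. Summits lay 1305 bp from the TSS of RNA5S12, 591 bp from that of RNA5S6 and 465 bp from that of the pseudogene RNA5SP18. RNA5S12 had 7.62 and 4.40, RNA5S17, whose region was nearest to the pseudogene RNA5SP18, 3.55 and 4.26, and RNA5S5 and RNA5S6 shared 1 region at chr1:228620832-228621094, with 2.39 and 2.73. That last region had the lowest fold enrichment of the 241 in replicate 1. Its summit held 43 fragments in each replicate, but over a local background of 17.4 and 15.1 fragments, the highest of the 241, and it also met an IgG2a peak. The summit window of RNA5S12 had 17 near-identical copies elsewhere in the genome. RN7SK and RMRP had a peak in 1 palbociclib replicate alone, and RPPH1 and RNU6-9 had gained regions shared with a coding promoter, at 6.93 and 5.85 and at 4.48 and 4.29.

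Windows with copies elsewhere were more frequent here than at coding promoters. A match of at least 95% identity over at least 90% of the 201 bp around the summit was found elsewhere on hg38 for 38 of the 241 regions (15.8%, 11.4 to 21%), against 1.18% (0.899 to 1.52%) of gained coding-promoter regions and 5.82% (3.36 to 9.28%) of gained regions outside promoters. The share was 33.3% (18 to 51.8%) where the nearest gene was a pseudogene and 13.5% (9.04 to 19.2%) where it was an lncRNA gene. For 22 of the 38 a copy lay at a coding promoter, for 14 at another of the 241 regions, and for 27 under a peak in both palbociclib lists. Median fold enrichment was 7.30 and 7.24 for regions with a copy and 6.52 and 6.50 for the 203 without one. Whether fragments were placed at the right copy was not tested, since the peak lists hold no mapping qualities.

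4 pairs, picked after their values were seen, show how near such copies can be. Each pair gives 101 bases centred on the summit and the aligned bases of the coding promoter, with positions that differ in capitals.
MSTO2P, chr1:155745671-155745771, plus strand: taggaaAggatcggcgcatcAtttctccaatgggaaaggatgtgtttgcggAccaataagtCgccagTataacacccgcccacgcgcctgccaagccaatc
MSTO1, chr1:155610090-155610191, plus strand: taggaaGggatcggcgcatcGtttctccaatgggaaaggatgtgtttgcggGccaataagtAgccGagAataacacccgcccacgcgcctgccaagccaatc
SMG1P5, chr16:30335280-30335380, minus strand: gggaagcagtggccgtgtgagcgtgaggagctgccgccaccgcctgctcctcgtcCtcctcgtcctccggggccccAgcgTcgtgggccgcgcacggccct
SMG1, chr16:18926315-18926415, minus strand: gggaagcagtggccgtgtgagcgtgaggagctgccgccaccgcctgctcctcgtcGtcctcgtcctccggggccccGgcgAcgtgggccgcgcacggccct
NPEPPSP1, chr17:38257403-38257503, minus strand: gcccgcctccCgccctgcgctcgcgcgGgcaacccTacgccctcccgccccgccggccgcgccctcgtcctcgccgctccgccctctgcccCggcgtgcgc
NPEPPS, chr17:47530950-47531050, plus strand: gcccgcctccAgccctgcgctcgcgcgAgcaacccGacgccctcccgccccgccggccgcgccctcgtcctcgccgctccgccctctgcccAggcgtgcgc
ENSG00000291186, chr11:71786902-71787002, plus strand: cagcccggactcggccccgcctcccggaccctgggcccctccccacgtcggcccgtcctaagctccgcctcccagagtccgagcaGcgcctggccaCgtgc
EEF2KMT, chr16:5098272-5098372, minus strand: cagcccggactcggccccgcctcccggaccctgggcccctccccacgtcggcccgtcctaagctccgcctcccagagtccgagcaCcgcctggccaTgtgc
The pairs differed at 6, 3, 4 and 2 of the positions, and MSTO2P and MSTO1 differed in length by 1 base. All 4 coding partners lay under a peak in both palbociclib lists, as did a coding copy for 13 of the 22 regions with one. For the other regions, FAM86KP among them, no coding copy did. ENSG00000291186 shares its promoter with FAM86C1P, and EEF2KMT, formerly FAM86A, is the coding gene of that family. FAM86EP (13.0 and 13.9), ENSG00000248787 at FAM86JP (11.4 and 14.6), FAM86GP (10.6 and 6.85) and ENSG00000291186 (7.89 and 8.11), also picked out afterwards, each had a copy at another of these 4 regions. MSTO2P had a fold enrichment of 17.2 and 11.3, SMG1P5 7.84 and 7.96, and NPEPPSP1 9.14 and 9.79.

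Most summit windows were CpG-rich, here a GC content of at least 55% with an observed over expected CpG ratio of at least 0.65. This held for 188 of the 241 windows (78.0%, 72.2 to 83.1%), for 88.8% (87.9 to 89.7%) at gained coding promoters and for 72.0% (66.3 to 77.2%) outside promoters. Of 60613 windows of the same length centred on non-coding TSSs outside coding promoters, 11.2% were CpG-rich. The median GC content was 69.2% in the 241 windows and 47.8% at those TSSs. CpG-rich regions and the other 53 had similar fold enrichment, at 6.54 and 6.64 against 6.6 and 6.86.

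E2F words were scarce under the summits. The words TTTCCCGC, TTTCGCGC, TTTGCCGC and TTTGGCGC were sought in either orientation up to 100 bp from each summit, and 8 of the 241 windows held one (3.32%, 1.44 to 6.44%). The share was 4.84% (4.26 to 5.47%) at gained coding promoters, 3.27% (1.51 to 6.12%) outside promoters, 0.863% over all non-coding TSS windows and 3.47% (3.05 to 3.94%) over the 6796 of them that were CpG-rich. All 8 are printed since they are the only ones, those beyond the 3 best-ranked and MIR762HG being named after their values were seen, on the strand that carries the word in this direction, with the word in capitals between 16 flanking bases on each side.
LINC01237, chr2:241881283-241881322, minus strand: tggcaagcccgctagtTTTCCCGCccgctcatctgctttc
ENSG00000290121, chr1:144546696-144546735, minus strand: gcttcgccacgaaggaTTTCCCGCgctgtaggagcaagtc
ENSG00000288925, chr1:203290590-203290629, plus strand: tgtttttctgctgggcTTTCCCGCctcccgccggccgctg
MIPEPP3, chr13:21298251-21298290, minus strand: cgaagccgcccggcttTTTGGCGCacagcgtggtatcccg
MIR762HG, chr16:30875209-30875248, plus strand: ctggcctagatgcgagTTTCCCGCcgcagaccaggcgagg
ZNF37BP, chr10:42552625-42552664, minus strand: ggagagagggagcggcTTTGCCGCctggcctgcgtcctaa
ZFHX3-AS1, chr16:72665148-72665187, minus strand: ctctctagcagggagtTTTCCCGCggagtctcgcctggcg
ENSG00000289141, chr1:161390364-161390403, minus strand: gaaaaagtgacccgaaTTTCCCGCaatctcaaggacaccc
The word TTTCCCGC was the form at 6 of the 8. The 3 best-ranked were LINC01237, with a fold enrichment of 7.62 and 11.7, ENSG00000290121, with 7.54 and 9.83, and ENSG00000288925, with 5.33 and 4.92. The 8 had medians of 6.38 and 5.26, against 6.56 and 6.72 for the other 233. MIR17HG and DANCR held no such word within 100 bp of their summits. A match is a description of the letters and not evidence of E2F binding, and a window without one may hold a weaker site.

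Words of other factors ranged from common to rare. SP/KLF words (GGGCGG) occurred in 174 of the 241 windows (72.2%, 66.1 to 77.8%), 70.9% (69.6 to 72.2%) of gained coding-promoter windows, 54.4% of CpG-rich non-coding TSS windows and 11.5% of all non-coding TSS windows. The NFY word CCAAT occurred in 24.9% (19.6 to 30.9%), against 23.9% (22.7 to 25.1%) at gained coding promoters, 26.5% at all non-coding TSSs and 16.1% (15.2 to 17%) at the CpG-rich ones. The CHR word TTTGAA, found at promoters of G2/M cell cycle genes, occurred in 1.66% (0.454 to 4.19%), against 3.46% (2.97 to 4%) at gained coding promoters, 14.2% at all non-coding TSSs and 3.18% (2.77 to 3.62%) at the CpG-rich ones, the last within the interval of the 241. The ETS word CCGGAAGT occurred in 5 of the 241 windows. The NRF1 word GCGCATGC and the AP-1 word TGACTCA, the site of FOS and JUN factors, occurred in 4 windows each. The CRE word TGACGTCA, the FOXA word TGTTTAC and the TATA word TATAAA occurred in 3 windows each, and the YY1 word AAGATGGC in 1. None of these words contains another on either strand.

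**Figure D5:**
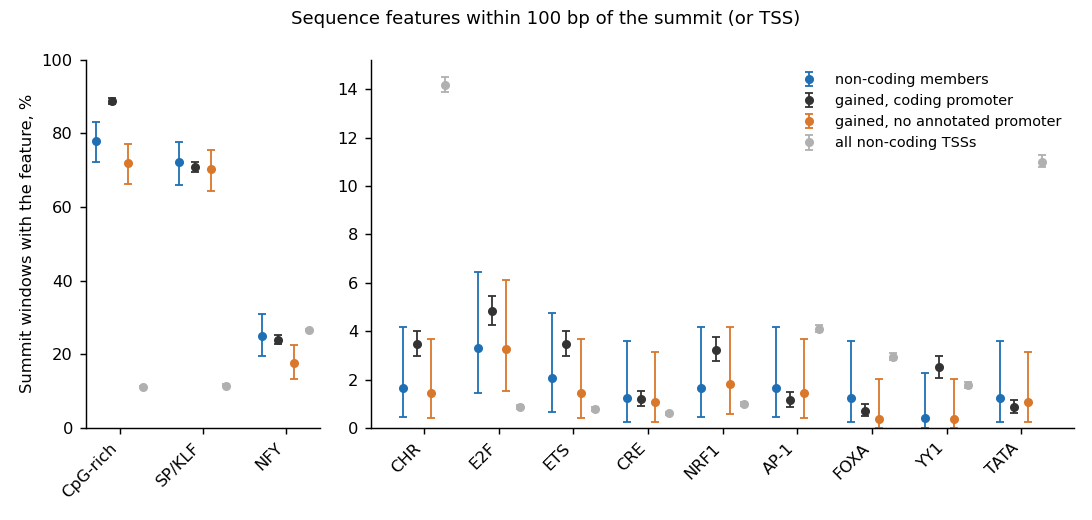
Percentage of 201 bp windows (y axis, different scales left and right) that are CpG-rich or hold a word for each factor (x axis), around the summits of the 241 non-coding regions, gained coding-promoter regions and gained regions outside annotated promoters, and around all non-coding TSSs outside coding promoters. Bars are exact 95% binomial intervals. CpG-rich windows make up 78.0, 88.8 and 72.0% of the 3 gained classes in this order, and 11.2% of all non-coding TSSs. The NFY word is about as frequent at the 241 regions (24.9%) as at all non-coding TSSs (26.5%).

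The control libraries had few peaks at these regions. Neither RB1 KO library had a peak at any of the 241 regions, which allows a share of up to 1.52%, although these lists held 4 and 5 peaks in all on the chromosomes analysed. The IgG2a list held 1724 peaks on these chromosomes, 137 of them (7.95%, 6.71 to 9.33%) at non-coding promoters alone. It met 4 of the 241 regions (1.66%, 0.454 to 4.19%), against 1.32% (1.02 to 1.68%) of gained coding-promoter regions and 0.364% (0.00921 to 2.01%) of those outside promoters. The 4 were SVIL-AS1, with 10.8 and 9.69, ENSG00000287475, with 12.1 and 9.53, ZNRF2P2, with 7.28 and 6.83, and the shared region of RNA5S5 and RNA5S6. The Rb peaks were called against IgG, so a small overlap with IgG2a peaks was partly set by the calling and is not a separate check. With 1 library in each of the control groups no test was made.

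At the edges of the selection, the regions nearest to a coding promoter window were TPRG1-AS1, 10 bp outside that of TPRG1, with 3.67 and 8.14, and a region at NRSN2-AS1, 35 bp outside that of SOX12, with 4.88 and 4.28. Just beyond the edge, the region at LRP8-DT overlapped the window of LRP8 by 2 bp, with 12.5 and 10.4, and that at ENSG00000271009 the window of ZFHX3 by 6 bp, with 4.74 and 6.20. The lowest ranks among the 241 were held by MIR22HG, at 4.32 and 4.22 with 6 fragments at the summit in each replicate, and by ENSG00000289570, at 4.16 and 3.51.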

How the data were processed

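Trimming used BBDuk and alignment to hg38 used Bowtie2 2.3.4.1, per the labels and the study's methods; blacklisted regions and the mitochondrial genome were filtered out, but duplicates were not, so fragments are not independent molecules. MACS2 2.2.7.1 then called peaks from fragment pairs, separately in every library and against IgG, at a q-value cutoff of 0.05. The deposited lists give peak start, end and summit, a score, fold enrichment, −log10 p and −log10 q, all the authors' values. Fold enrichment is pileup over local background after the addition to each that is given above. The control behind the IgG2a list is not given in the sources used here.

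Groups and replicate numbers came from sample titles. Peaks were joined at an overlap of at least 1 bp. A region carried, in each replicate, the values of its best peak by −log10 q, and its summit was the mean of both. TSSs of every transcript came from GENCODE 44. The members and gene lists were chosen with earlier results of these data known. Regions were named by the non-coding gene with the TSS nearest to the summit. Named were the 12 best-ranked by mean within-list rank of −log10 q, the best 5 of each class, those at listed genes, those at control peaks, edge cases and the best 3 with E2F words, and others are said to be chosen later. Pileups were solved from fold enrichment and p to within 0.000159 in −log10 p. Copies were searched with blastn 2.17.0. No test across regions was run. Scripts used Python 3.11.15 and scipy 1.17.1 and were tested on simulated data.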

Additional observations from a re-analysis of the deposited data

How the results depend on the processing

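The results are counts, shares and ratios from 4 parental peak lists. No paired analysis was possible because no result comes from a test. Each parental list limited to 816 peaks left 2 regions, 1.64% of those gained, with a ratio to coding promoters of 0.79, an E2F share of 0%, a CpG-rich share of 50%, an IgG2a share of 0% and an lncRNA share of 50%; such shares of 2 regions say nothing further. Using 1 TSS a gene, which drops alternative coding starts, raised the number to 468 and the share of gained regions to 8.48%. Leaving out each library in turn gave 252 to 364 regions, 4.38 to 5.06% of those gained, a ratio of 0.876 to 0.913, an E2F share of 2.91 to 4.4%, a CpG-rich share of 69.5 to 79%, an IgG2a share of 1.1 to 1.91% and an lncRNA share of 84.1 to 86.1%; palbociclib replicate 2 moved the number over 1.5 times, to 364 when it was left out, since 1 list then stood for the consensus. Requiring −log10 q of at least 5 gave a ratio of 0.972 and an lncRNA share of 90.1%, and a fold enrichment of at least 5 a ratio of 0.968. Without pseudogenes the lncRNA share was 92.4%, and without regions with a copy the share of gained regions was 3.75%. Within 250 bp of the summit the E2F share was 7.88% and the CpG-rich share 84.6%. Chosen after seeing the data, taking coding promoters from protein-coding transcripts only gave 263 regions, and counting non-coding transcripts of coding genes as well gave 340, 6.16% of those gained, with an lncRNA share of 66.5%. A common p cutoff, also added later, gave 220. The other alternatives left each result within its interval, its replicate SD or, for the number, within 1.5 times.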

Other observations

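Some regions lay beside one another, and are named here for their position. Of the 241, 8 neighbouring pairs were less than 10000 bp apart, and in 5 of them both regions were named by the same gene, MIR9-1HG (85 bp apart), ENSG00000289570 (101 bp), MIR17HG (297 bp), NRSN2-AS1 (465 bp) and LINC01623 (1934 bp). MIR22 and MIR22HG were met by separate regions 3029 bp apart, with fold enrichments of 6.33 and 5.37 and of 4.32 and 4.22.

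3 more regions were picked out after their values were seen, and no list or theme is drawn from them. DINOL, an lncRNA gene at the CDKN1A locus, which encodes the CDK inhibitor p21, had a fold enrichment of 8.63 and 10.3. The summit lay 1890 bp from the DINOL TSS and 1678 bp from a CDKN1A TSS, and so was nearer to the coding gene. ELDR, near EGFR, had 17.1 and 9.06, and CHASERR, upstream of the chromatin remodeller gene CHD2, had 6.89 and 5.66. At 16 of the 241 regions the local background was more than 2 times the median over all palbociclib regions in both replicates.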
